A study of Homo sapiens with 4 samples.

Results

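The gene table of this series lists 4 columns of microarray intensities, 2 of supernatants and 2 of inputs, each pair lettered A and B. The difference between the letters is described here, with the 2 A columns set against the 2 B columns on the log2 scale. It is not the difference between supernatant and input that the study was designed around. Members were all genes whose mean over the 4 intensities was at least 36.1, in both blocks of the table. There were 5904 members of 6434 genes, made up of all 5210 genes with a single peak of N1-methyladenosine (one-peak genes) and 694 of the 1224 genes without a peak (non-m1A genes). The other 530 non-m1A genes lay below the limit. The level limit used the mean over all columns and not the difference between letters. Just inside it were MICAL1, with a mean intensity of 36.106, and C17orf53, with 36.138. Just outside were MAN2B2 with 36.012 and FIBCD1 with 35.975.

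The samples of the series are messenger RNA of the human hepatoma line HepG2, kept in DMEM medium, and no drug or other stimulus is named. RNA was selected for poly(A) in 2 rounds. A supernatant is the intact RNA that an m1A antibody did not take out (m1A is N1-methyladenosine), and an input is the same kind of RNA before that step. The A group was supernatant A and input A, and the B group was supernatant B and input B. Each letter therefore held 1 supernatant and 1 input column. The headers do not say whether a letter marks a culture, an extraction or a hybridisation, and the letters were not matched to the replicate numbers 1 and 2 of the sample titles. If a letter marks 1 preparation, then each side of the comparison is a single preparation measured as 2 fractions. The p-values therefore measure only the spread between the columns of a letter. Without fraction as a block, that spread is supernatant against input, together with any technical noise. It is not a spread between independent preparations. An exact two-sided permutation test of 2 columns against 2 cannot go below p = 0.333.

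Median intensities over the members were 203.7 and 196.7 in supernatant A and input A, against 203.0 and 197.4 in supernatant B and input B. The table names no cell line, so the labelled liver origin was set against marker genes. Of 32 liver genes written down, 6 were in the table and 2 were members. Among the 4 below the limit, the apolipoprotein gene APOE had 26.2 and 32.8 in A and 33.8 and 31.0 in B (supernatant, then input). The intermediate filament gene VIM, a marker of mesenchymal cells, had 6284 and 6569 in A and 5928 and 5851 in B. The urea cycle gene CPS1 was bright, with 3317 and 3403 in A and 3473 and 3101 in B. The table holds chosen genes, so a liver gene outside it was not analysed here. The summed level of the 9 mesenchymal or squamous markers in the table ran from 12698.1 to 12903.3 in A and from 12864.7 to 13035.9 in B. For the 4 epithelial markers the sums were 6962.2 to 7327.9 in A and 8868.5 to 8935.7 in B. Marker genes of endothelium and red cells had 0 members.

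As background, cells that run short of amino acids, or that meet certain other stresses, phosphorylate the initiation factor eIF2. Most protein synthesis then slows, while translation of the transcription factor ATF4 increases. ATF4 pairs with C/EBP proteins at a composite DNA element and switches on genes for amino acid synthesis, amino acid import and tRNA charging. Hypoxia-inducible factor does the corresponding work for low oxygen, through a short element in genes for glycolysis and acid handling. The regulators YAP and SRF respond to cell density, adhesion and the actin cytoskeleton, and immediate early genes such as FOS respond within minutes to serum.

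The A columns lay apart from the B columns by more than the supernatants lay apart from the inputs. The standard deviation over members of the A minus B difference was 0.20 on the log2 scale, and that of supernatant minus input was 0.10. The median A minus B difference was 0.01, with quartiles at -0.12 and 0.13 and a range from -0.81 to 1.86. It was at least 0.5 in 57 members and at most -0.5 in 59. It was at least 1 in 2 members and at most -1 in 0.

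With limma's moderated test, 0 of 5904 members passed an adjusted p of 0.05 in either direction (0.0% higher and 0.0% lower), and the smallest adjusted p was 0.157. At an unadjusted p under 0.05, 711 members (12.0%) were higher in A and 683 (11.6%) were lower, 23.6% in all. The same counts for supernatant against input were 39 (0.661%) and 25 (0.423%), or 1.08% together, with 0 members at an adjusted p under 0.05. That fit had no block, so the difference between letters was part of its spread and lowered its counts. With letter as a block the unadjusted counts for supernatant against input were 173 higher and 62 lower. With fraction as a block those for A minus B were 694 and 661. When the prior variance in limma was allowed to depend on the mean intensity (the trended prior), 125 members (2.12%) were higher in A and 139 (2.35%) were lower at an adjusted p under 0.05, and the smallest adjusted p was 0.00335. All 264 of these (4.47%) had both A columns on one side of both B columns. The trended counts depended on single columns: without input A they were 9 and 7, and without supernatant A 29 and 89. Without input B they were 84 and 89, and without supernatant B 901 and 465. Of the 264 members, 16 still passed without input A, 87 without supernatant A, 141 without input B and 264 without supernatant B. Beside gene values below, the adjusted p of the trended prior is given as such, and for every gene named with one the adjusted p of the plain prior was 0.157 or more.

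The order of the columns gave a wider count. Both A columns were above both B columns in 1955 members (33.1%) and below both in 1758 (29.8%), or 62.9% in all, which left 2191 in which they overlapped. Between supernatants and inputs, 957 members (16.2%) had both supernatants above and 363 (6.15%) had both below, 22.4% in all. A gap of at least 0.5 log2 units between the nearest A and B columns, a margin chosen after values were seen, was found in 11 members with A above (0.186%) and 17 with A below (0.288%). The same gap was found in 0 members for supernatant above input and in 5 (0.0847%) for supernatant below input. All 11 and all 17 were one-peak genes, but so were most members, with 5210 one-peak against 694 non-m1A genes. Whether such a gap goes with a peak was not tested.

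The difference between letters was seen in both fractions. Supernatant A minus supernatant B and input A minus input B had the same sign in 4428 of 5904 members (75.0%). Over these members Pearson's r of the 2 differences was 0.70 and Spearman's rho 0.68, as a description across genes, which are not independent replicates and share arrays. The spread of the difference was narrower between the supernatants, with a standard deviation of 0.17, than between the inputs, with 0.26. The input difference was the larger in size in 4025 members (68.2%). Brighter genes showed more alike differences. In the lowest quartile of level, with mean intensities up to 95.7, Pearson's r was 0.65 and the standard deviations were 0.20 between supernatants and 0.33 between inputs. In the highest quartile, from 485.7 upwards, r was 0.77 and the standard deviations were 0.14 and 0.21. In the 530 genes below the level limit r was 0.27.

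**Figure D1:**
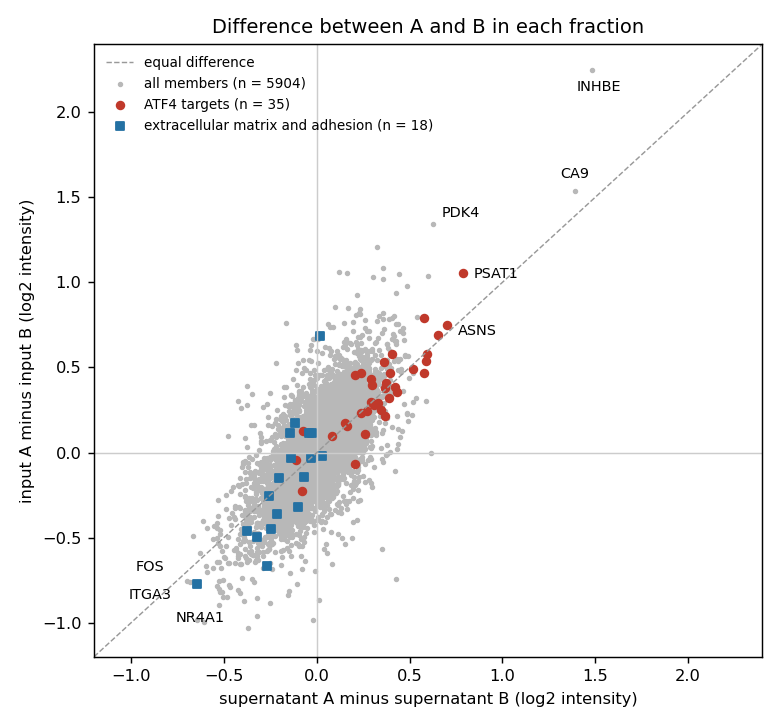
Each grey point is a member (n = 5904), with supernatant A minus supernatant B on the x axis and input A minus input B on the y axis, both in log2 intensity. Red circles are the 35 ATF4 targets and blue squares the 18 extracellular matrix and adhesion genes, and the dashed line marks equal differences. Most ATF4 targets sit where both differences are above 0, INHBE and CA9 lie farthest out, and the cloud is taller than wide.

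Among the genes brighter in A, INHBE led. INHBE encodes a subunit of activin E, a secreted protein of the TGF-beta family. INHBE had intensities of 126.5 in supernatant A and 137.6 in input A, against 45.4 in supernatant B and 29.0 in input B. Both A columns were above both B columns, and the A minus B difference was 1.86 ± 0.23 log2 units (SE, n = 2 columns per letter), or 3.64-fold, with a limma adjusted p of 0.0117 under the trended prior. Leaving out 1 column at a time gave differences from 1.54 to 2.19.

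CA9 encodes carbonic anhydrase IX, a membrane enzyme that handles acid and a textbook target of hypoxia-inducible factor. Its intensities were 112.3 in supernatant A and 107.4 in input A, against 42.9 in supernatant B and 37.0 in input B. The groups did not overlap, and the difference was 1.46 ± 0.09 log2 units, or 2.76-fold, with a limma adjusted p of 0.00335 under the trended prior. CA9 also passed with the plain prior in 2 alternatives, with a limma adjusted p of 0.029 when the fit held members only and 0.0316 after quantile normalization.

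Several of the genes next in size make serine, asparagine or arginine. PSAT1, an aminotransferase of serine synthesis, had 2121 in supernatant A and 2187 in input A, against 1228 in supernatant B and 1051 in input B (0.92 ± 0.10 log2 units). PHGDH, the first enzyme of the same route, had 3577 and 3428 in supernatant A and input A, against 2382 and 2365 in supernatant B and input B (0.56 ± 0.06). ASNS, asparagine synthetase, had 3076 and 2853 in supernatant A and input A, against 1889 and 1695 in supernatant B and input B (0.73 ± 0.09). In each of these 3 genes both A columns were above both B columns, and the limma adjusted p values under the trended prior were 0.00335 for PSAT1, 0.00335 for PHGDH and 0.00602 for ASNS. ASS1, argininosuccinate synthetase, had 5703 and 5547 in supernatant A and input A, against 3789 and 3810.0 in supernatant B and input B (0.57 ± 0.06, adjusted p 0.00335 in limma with the trended prior).

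A secreted hormone, a transporter and a signalling gene followed in the same direction. STC2, a secreted glycoprotein hormone, had 152.1 and 154.9 in supernatant A and input A, against 96.9 and 95.9 in supernatant B and input B (0.67 ± 0.06). SLC7A11, the cystine and glutamate exchanger, had 388.1 and 381.6 in supernatant A and input A, against 257.5 and 255.6 in supernatant B and input B (0.59 ± 0.06). TRIB3, a pseudokinase that feeds back on ATF4, had 577.1 and 573.0 in supernatant A and input A, against 387.5 and 331.6 in supernatant B and input B (0.68 ± 0.09). None of these 3 genes had overlapping groups, and all passed under the trended prior with limma adjusted p values of 0.0117 for SLC7A11 and 0.0118 for STC2 and TRIB3. The mitochondrial carboxykinase PCK2 (0.52 ± 0.06), the tryptophan tRNA synthetase WARS (0.50 ± 0.06), IFRD1 (0.52 ± 0.06) and PMAIP1, which encodes the cell death regulator NOXA (0.56 ± 0.07), had the same order of columns. Smaller again were CCDC138 (0.49 ± 0.06), the organic cation transporter SLC22A4 (0.47 ± 0.06) and the DNA crosslink repair gene DCLRE1A (0.46 ± 0.06).

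PDK4 and CXCR7 were singled out after their values were seen, for the gap between columns. PDK4, a kinase that shuts off pyruvate dehydrogenase, had 93.1 and 115.2 in supernatant A and input A, against 60.5 and 45.5 in supernatant B and input B (0.98 ± 0.18). CXCR7, a scavenging chemokine receptor, had 124.8 and 128.8 in supernatant A and input A, against 85.8 and 74.2 in supernatant B and input B (0.67 ± 0.09). The limma adjusted p values under the trended prior were 0.0292 for PDK4 and 0.0216 for CXCR7. The choice by gap fixed in advance that their groups did not overlap and favoured small p-values, so both are descriptions only.

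**Figure D2:**
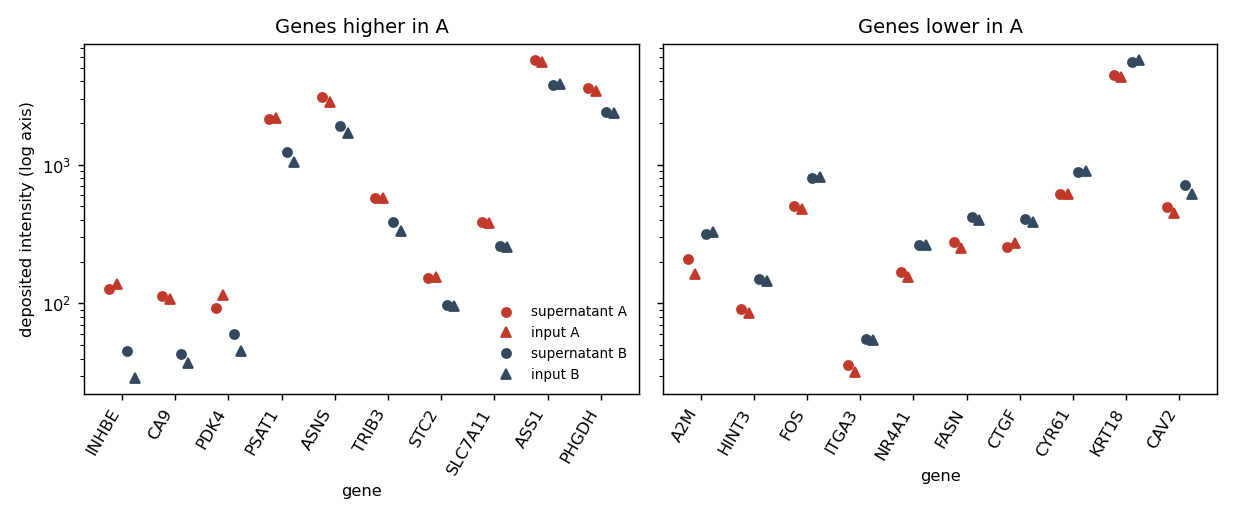
Deposited intensity on a log axis for 10 genes brighter in A (left) and 10 dimmer in A (right). Red marks are the A columns and dark marks the B columns, with circles for supernatants and triangles for inputs, 1 mark per column and no error bars. In all 20 genes both A columns lie on one side of both B columns, and the widest gaps are those of INHBE and CA9.

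Of 52 ATF4 targets written down, 35 were in the table and all 35 were members. Like the other lists, this one was chosen with earlier results of these data known, so its counts are a description. As a list, these 35 genes were higher in A in both fractions. Their median A minus B difference was 0.35 log2 units, with 0.35 between the supernatants and 0.38 between the inputs, against 0.01 over all members. Both A columns were above both B columns in 30 of 35 genes (33.1% of all members) and below in 2 (29.8%). With the trended prior 24 of 35 were higher at an adjusted p under 0.05 (2.12% of all members) and 0 were lower. With the plain prior 0 passed, while 29 were higher at an unadjusted p under 0.05 and 0 were lower. Between supernatants and inputs the median of these genes was 0.01, against 0.04 over all members. Each fit with 1 column left out had a single column for 1 letter. In those fits the trended count of the list changed, as did the count over all members. The fewest list genes passed without input A, namely ASNS, TRIB3, PSAT1, PHGDH and SLC7A11. Fewer also passed without supernatant A or without input B. More passed as higher without supernatant B, where a lower call appeared too. The median of the list lay between 0.34 and 0.36 when any 1 column was left out.

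ATF4 was itself a member. It had 6516 and 6533 in supernatant A and input A, against 5520.0 and 5557 in supernatant B and input B, a difference of 0.24 ± 0.06 with a limma adjusted p of 0.0292 under the trended prior. Its partners CEBPB and CEBPG differed by 0.35 ± 0.09 and 0.36 ± 0.06. The A columns lay above the B columns for all 3 factors.

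The remaining targets can be read by role. In one-carbon and sulphur metabolism, the mitochondrial folate enzyme MTHFD2 differed by 0.35 ± 0.06, the serine hydroxymethyltransferase SHMT2 by 0.43 ± 0.06 and the cystathionine lyase CTH by 0.45 ± 0.07. All 3 passed under the trended prior, and PSPH, the last enzyme of serine synthesis, did not, with 0.33 ± 0.10 and a limma adjusted p of 0.0538. In amino acid import, SLC38A2 differed by 0.36 ± 0.07 and SLC3A2, the heavy chain that SLC7A11 and SLC7A5 share, by 0.29 ± 0.06. SLC7A5, the light chain for large neutral amino acids, had 943.4 and 919.2 in supernatant A and input A, against 1020.0 and 949.6 in supernatant B and input B (-0.08 ± 0.07). The stress gene GADD45A had 288.6 and 297.3 in supernatant A and input A, against 304.4 and 347.6 in supernatant B and input B (-0.15 ± 0.09). SLC7A5 and GADD45A were the 2 list members with A below B, and neither passed. SLC1A5, SLC7A1 and VLDLR had overlapping columns.

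Several stress regulators of the list had both A columns above both B columns. CHAC1, which degrades glutathione, differed by 0.40 ± 0.08, the translation inhibitor EIF4EBP1 by 0.30 ± 0.06 and the mTOR inhibitor DDIT4 by 0.26 ± 0.06, and each passed under the trended prior. ATF3, a transcription factor of the same response, had 67.9 and 68.9 in supernatant A and input A, against 54.0 and 56.3 in supernatant B and input B (0.31 ± 0.06). Its groups did not overlap and its limma adjusted p under the trended prior was 0.0978. SESN2, which senses leucine, differed by 0.29 ± 0.06, with 0.0604.

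**Figure D3:**
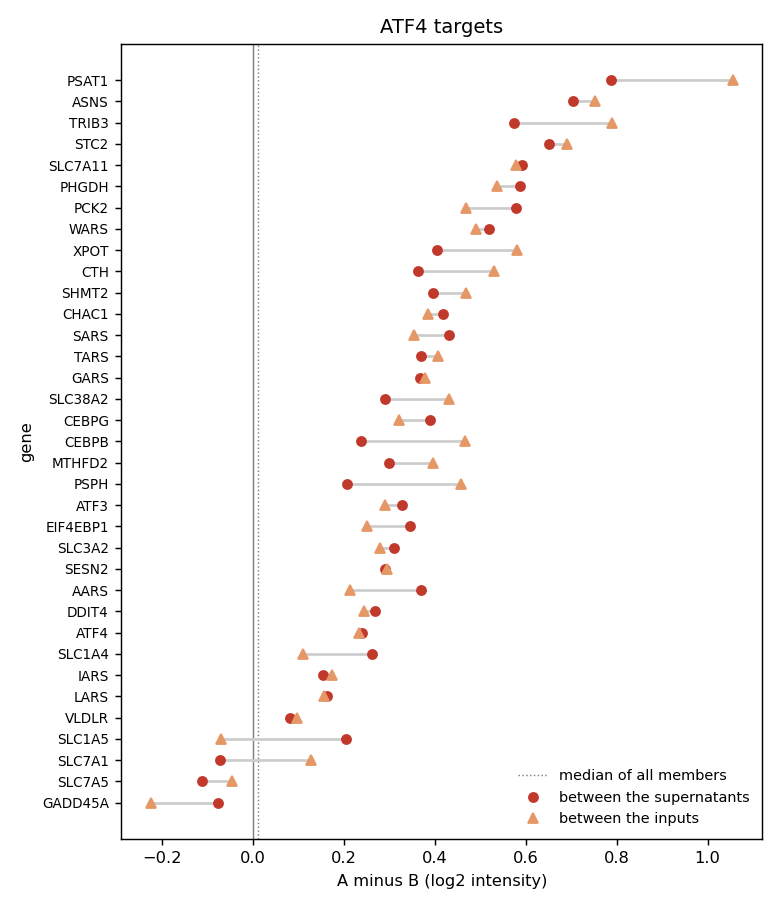
A minus B in log2 intensity for each of the 35 ATF4 targets, between the supernatants (red circles) and between the inputs (orange triangles). The dotted line is the median of all members, 0.01. PSAT1, ASNS and TRIB3 stand at the top, and GADD45A and SLC7A5 lie left of 0 in both fractions.

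Promoter sequence gave a description of the list that the intensities did not use. The core of the composite element that ATF4 and C/EBP proteins bind, TGATGNAA with N for any base, was searched on both strands in the 250 bases before annotated starts (RefSeq, GRCh38.p14). It was found for 7 of the 27 ATF4 targets that had a promoter in the table (25.9%), against 104 of 4903 members (2.12%) and 1061 of all 27305 genes (3.89%). The list was written from textbook ATF4 targets with earlier results of these data known, and such targets are partly known through this element. The following windows of 100 bases are shown because they hold the match in 5 genes of the list, with the match in capitals, read along the gene's strand. TTGCATCA is the match on the other strand.
ASNS promoter, chr7:97872423-97872522, minus strand: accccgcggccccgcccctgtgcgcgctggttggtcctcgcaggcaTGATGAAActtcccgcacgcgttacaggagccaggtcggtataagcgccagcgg
ATF3 promoter, chr1:212565170-212565269, plus strand: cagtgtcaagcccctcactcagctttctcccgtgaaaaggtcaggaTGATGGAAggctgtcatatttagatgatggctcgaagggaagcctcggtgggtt
CHAC1 promoter, chr15:40953221-40953320, plus strand: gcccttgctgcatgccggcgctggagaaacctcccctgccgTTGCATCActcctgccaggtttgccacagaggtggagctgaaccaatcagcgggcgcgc
AARS promoter, chr16:70289640-70289739, minus strand: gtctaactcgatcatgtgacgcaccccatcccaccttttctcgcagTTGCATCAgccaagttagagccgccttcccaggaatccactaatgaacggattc
IARS promoter, chr9:92293698-92293797, minus strand: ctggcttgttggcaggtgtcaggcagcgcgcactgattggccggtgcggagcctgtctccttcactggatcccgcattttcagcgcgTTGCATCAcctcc
The match began 68 bases before the start in ASNS, 191 in ATF3, 209 in CHAC1, 187 in AARS and 13 in IARS. Of these, ASNS, CHAC1 and the alanine tRNA synthetase AARS (0.29 ± 0.07) passed under the trended prior. The isoleucine tRNA synthetase IARS (0.16 ± 0.06) and ATF3 did not. CEBPG and SLC1A5 also held the match and are not shown. CEBPG passed, while SLC1A5 (0.07 ± 0.09) had overlapping columns and did not. A match is a description and no statement on binding.

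Of 23 genes of cytosolic tRNA charging written down, 14 were in the table. These 14 were synthetases, which load amino acids on tRNA, and the auxiliary proteins AIMP1, AIMP2 and EEF1E1 of their complex, which charge no tRNA. Their median was 0.16, with both A columns above both B columns in 9 (33.1% of all members) and below in 3 (29.8%). Under the trended prior 6 were higher (2.12% of all members), EEF1E1 among them, and 0 lower (2.35%). GARS, for glycine, had 3073 and 3197 in supernatant A and input A, against 2383 and 2459 in supernatant B and input B (0.37 ± 0.06). TARS, for threonine, had 3592 and 3738 in supernatant A and input A, against 2779 and 2819 in supernatant B and input B (0.39 ± 0.06). Both genes passed under the trended prior and had no overlap. Some of the list was also on the ATF4 list, and the 7 genes outside it, these auxiliary proteins included, had a median of 0.02. Of these 7, 2 had A above B and 3 had A below.

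Of 48 hypoxia and glycolysis genes written down, 29 were in the table and 28 were members. The median of these 28 was 0.12, or 0.11 without CA9. Both A columns were above both B columns in 17 (33.1% of all members) and below in 4 (29.8%). Under the trended prior CA9, BNIP3, PDK1 and DDIT4 were higher (2.12% of all members) and the glycolytic isomerase GPI was lower (2.35%). DDIT4 was also among the ATF4 targets that passed. PDK1 and DDIT4 did not pass with either A column left out. BNIP3, which directs mitochondria to autophagy, had 655.2 and 727.8 in supernatant A and input A, against 471.2 and 491.2 in supernatant B and input B (0.52 ± 0.08). PDK1, a pyruvate dehydrogenase kinase, had 141.9 and 127.6 in supernatant A and input A, against 104.0 and 87.3 in supernatant B and input B (0.50 ± 0.12). The limma adjusted p of PDK1 under the trended prior was 0.0496. GPI had 1390.0 and 1215 in supernatant A and input A, against 1655 and 1770.0 in supernatant B and input B (-0.40 ± 0.09). The glycolytic enzymes were less far apart than these, with a median of 0.02 over 10 genes. GAPDH had 10890.0 and 10715 in supernatant A and input A, against 10661 and 10782 in supernatant B and input B, so that its groups overlapped. The core of the hypoxia response element, ACGTG on either strand, was in 22 of the 26 list genes with a promoter (84.6%). It was in 1457 of 4903 members (29.7%) and 5935 of 27305 genes (21.7%). Hypoxia genes are partly known through this element, so a high share does not bear on the difference between letters. A match is again no statement on binding. The promoter window of CA9, the gene of this list with the widest difference, is shown with its match (CACGT, the other strand) in capitals, 18 bases before the start.
CA9 promoter, chr9:35673828-35673927, plus strand: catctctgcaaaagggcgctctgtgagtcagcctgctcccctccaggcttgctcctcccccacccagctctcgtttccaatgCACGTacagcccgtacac

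In the other direction, A2M, HINT3, FOS and NR4A1 were among the genes dimmest in A relative to B. FOS, an immediate early transcription factor, had 501.3 and 478.4 in supernatant A and input A, against 805.1 and 809.1 in supernatant B and input B (-0.72 ± 0.06, limma adjusted p 0.00335 under the trended prior). NR4A1, an immediate early nuclear receptor, had 168.8 and 155.2 in supernatant A and input A, against 263.8 and 263.3 in supernatant B and input B (-0.70 ± 0.07, adjusted p 0.0117). HINT3, a histidine triad hydrolase, had 91.7 and 85.4 in supernatant A and input A, against 149.1 and 144.1 in supernatant B and input B (-0.73 ± 0.07). The A and B columns of these 3 genes did not overlap, and the B pairs were close to each other. A2M, a protease inhibitor of plasma singled out after its values were seen, had 208.2 and 163.0 in supernatant A and input A, against 316.6 and 325.5 in supernatant B and input B (-0.80 ± 0.13).

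The immediate early genes as a list lay in neither direction. Of 44 written down, 21 were in the table and 20 were members. The 20 genes had a median of -0.01, with 6 above (33.1% of all members), 7 below (29.8%) and 7 overlapping. Under the trended prior NR4A1, FOS and IER2 (-0.38 ± 0.09) were lower and the kinase SGK1 (0.28 ± 0.06) was higher. DUSP1, a phosphatase that switches off MAP kinases, had 433.6 and 406.8 in supernatant A and input A, against 439.6 and 419.4 in supernatant B and input B. MYC had 1745 and 1810.0 in supernatant A and input A, against 1570.0 and 1252 in supernatant B and input B (0.34 ± 0.13, adjusted p 0.0752 under limma's trended prior). With 1 column left out, the median of the list ran from -0.05 to 0.05.

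Of 61 extracellular matrix and adhesion genes written down, 18 were in the table. Of these 18, 12 had both A columns below both B columns (29.8% of all members), 1 had both above (33.1%) and 5 overlapped. Their median was -0.14, with -0.14 between the supernatants and -0.15 between the inputs, and among those with a mean intensity of at least 100 it was -0.23. Under the trended prior 5 were lower (2.35% of all members) and 0 higher, namely the integrin subunit ITGA3, the laminin chains LAMA5 and LAMB2, TGFBI and the protease inhibitor TIMP2. ITGA3 had 35.7 and 31.8 in supernatant A and input A, against 55.8 and 54.4 in supernatant B and input B (-0.71 ± 0.08). Its mean over the A columns, 33.8, was below the level limit, so that it was a member through its B columns. It was the 1 called gene among the 40 members with one letter's mean below the limit. TIMP2 had 314.3 and 308.1 in supernatant A and input A, against 407.6 and 423.7 in supernatant B and input B (-0.42 ± 0.06). Neither gene had overlapping groups. Without input A, 0 of the 18 passed, and without supernatant A only LAMB2 passed.

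Of 44 YAP and SRF targets written down, 16 were in the table. These 16 had a median of -0.16, with 11 below (29.8% of all members) and 3 above (33.1%). Under the trended prior CTGF, CYR61 and TAGLN2 were lower (2.35% of all members) and AJUBA (0.36 ± 0.06), which inhibits the Hippo kinases upstream of YAP, was higher (2.12%). CTGF, a matricellular growth factor, had 254.2 and 273.2 in supernatant A and input A, against 403.4 and 384.6 in supernatant B and input B (-0.58 ± 0.07). CYR61, of the same family, had 610.2 and 619.9 in supernatant A and input A, against 883.3 and 896.8 in supernatant B and input B (-0.53 ± 0.06). CTGF and CYR61 passed under the trended prior with any 1 of the A columns left out.

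Other genes dimmer in A came from several functions. FASN, fatty acid synthase, had 275.3 and 250.3 in supernatant A and input A, against 416.5 and 396.6 in supernatant B and input B (-0.63 ± 0.08, limma adjusted p 0.0118 under the trended prior). It was the single called gene of 24 in the cholesterol and SREBP list, whose median was 0.02 and was -0.005 when columns were centred on the non-m1A genes. PTGS1, cyclooxygenase 1 (-0.65 ± 0.06), the carboxypeptidase CPA4 (-0.59 ± 0.07), the fibulin EFEMP1 (-0.56 ± 0.07) and the collagen COL8A1 (-0.56 ± 0.07) had both A columns below both B columns. So did FUOM (-0.54 ± 0.06), CRELD1 (-0.54 ± 0.06) and the noncoding LINC00319 (-0.49 ± 0.06), and of these 7 genes LINC00319 did not pass under the trended prior. LINC00319 was a member through its B columns, since its mean over the A columns was 35.6. After their values were seen, the surface proteins ALPP (-0.68 ± 0.11) and MSLN (-0.66 ± 0.11), the Fanconi anaemia gene C17orf70 (-0.71 ± 0.11), GDPD5 (-0.67 ± 0.12) and the deubiquitinase USP11 (-0.63 ± 0.09) were added for the gap between columns.

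Some markers of cell identity had non-overlapping columns. The keratin KRT18 had 4434 and 4271 in supernatant A and input A, against 5527 and 5692 in supernatant B and input B (-0.37 ± 0.06, limma adjusted p 0.0118 under the trended prior). Of 12 epithelial markers written down, 4 were in the table, and all 4 had A below B (29.8% of all members). KRT18 and the junction protein JUP (-0.31 ± 0.08) passed as lower under the trended prior (2.35% of all members). CAV2, which coats membrane pits with CAV1, had 497.5 and 449.9 in supernatant A and input A, against 714.9 and 616.6 in supernatant B and input B (-0.49 ± 0.10). Of 18 mesenchymal or squamous markers written down, 9 were in the table. Both A columns were below both B columns in 5 of the 9 (29.8% of all members) and above in 1 (33.1%). CAV1, CAV2 and TGFBI were the 3 of 9 that passed, all as lower (2.35% of all members). VIM lay the other way (0.13 ± 0.06, not passing). FOXA1, a forkhead factor of liver and other epithelia, had 88.8 and 85.0 in supernatant A and input A, against 118.3 and 128.4 in supernatant B and input B (-0.51 ± 0.07). CPS1, the other liver member, had overlapping columns (0.03 ± 0.08). Whether these marker differences have a part in the other results was not tested.

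Large gene families are read against all members, of which 33.1% had both A columns above, 29.8% had both below, and 2.12% and 2.35% were higher and lower under the trended prior. The 51 cytosolic ribosomal protein genes had a median of 0.04, with 28 above and 1 below, and RPL22L1 alone passed under the trended prior (0.40 ± 0.08). The 86 zinc finger genes had a median of 0.09 with 41 above and 11 below, but 2 were higher and 1 lower under the trended prior. Respiratory chain genes had a median of -0.02 over 70, with 16 above and 31 below. Mitochondrial ribosomal proteins had 0.03 over 62, with 25 above and 11 below. Proteasome genes had -0.03 over 38, with 11 above and 13 below. The 37 lysosome genes had a median of -0.07, with 4 above and 15 below, and 2 were lower under the trended prior, among them the hydrolase GAA (-0.47 ± 0.09). Cell cycle genes lay near the median of all members, with 0.02 over 43 G1/S genes and -0.01 over 66 G2/M genes. The sign of the median changed with a scaling or with 1 column left out for the mitochondrial ribosomal proteins, the proteasome and both cell cycle lists. Without supernatant B the zinc finger median was 0.14 and that of the respiratory chain -0.04. With columns centred on the non-m1A genes the cytosolic ribosomal median was 0.01 and that of the respiratory chain -0.05. With 1 column left out, the lysosome median ran from -0.09 to -0.04.

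Of 25 genes written down that write, erase or read m1A and m6A, 18 were in the table, all of them members. The median of these 18 was 0.09, with A above in 10 (33.1% of all members) and below in 2 (29.8%). Under limma's trended prior 0 passed. At an unadjusted p under 0.05 with the plain prior 3 were higher (12.0% of all members) and 1 was lower (11.6%). TRMT10C, a subunit of the mitochondrial enzyme that sets m1A on tRNA and some mitochondrial messages, had 468.6 and 470.4 in supernatant A and input A, against 399.0 and 372.4 in supernatant B and input B (0.28 ± 0.07, limma adjusted p 0.0528). The m6A demethylase FTO had 123.4 and 118.7 in supernatant A and input A, against 142.4 and 144.7 in supernatant B and input B (-0.25 ± 0.06, adjusted p 0.0916 in limma with the trended prior). The groups of neither gene overlapped.

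**Figure D4:**
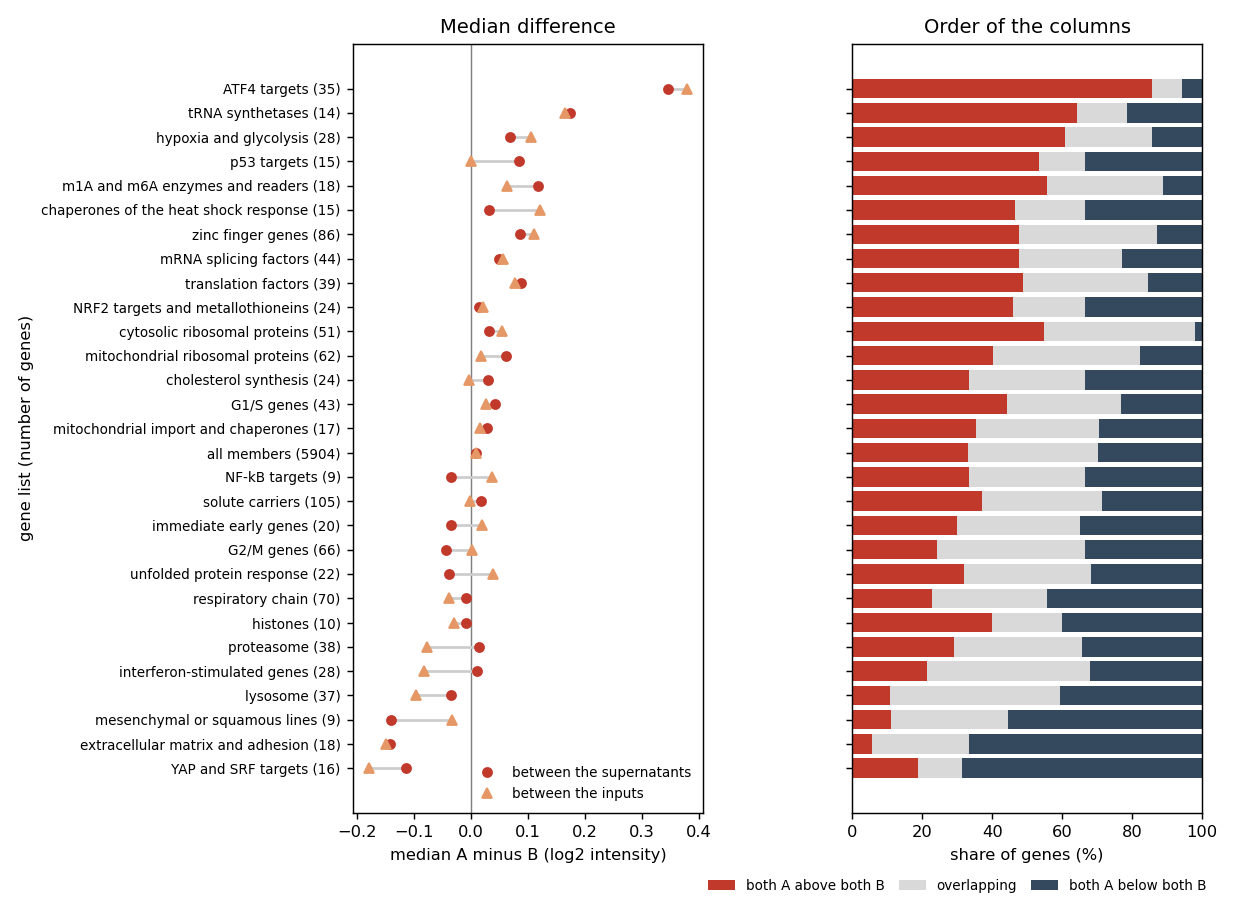
Left, median A minus B in log2 intensity for each list with 9 or more members, between the supernatants (red circles) and between the inputs (orange triangles). Right, share of each list with both A columns above both B columns (red), overlapping (grey) or with both below (dark). The ATF4 targets stand apart at the top with 30 of 35 genes above, and the matrix and YAP lists lie at the bottom.

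One-peak and non-m1A genes were compared as blocks. The median difference was 0.01 in 5210 one-peak genes and 0.04 in 694 non-m1A genes. Both A columns lay above in 1702 one-peak genes (32.7%) and below in 1602 (30.8%), and above in 253 non-m1A genes (36.5%) and below in 156 (22.5%). Under the trended prior 112 one-peak genes (2.15%) were higher and 130 (2.495%) lower. Among non-m1A genes 13 (1.873%) were higher and 9 (1.297%) lower. Over all members the shares were 2.12% and 2.35%. After quantile normalization the medians were -0.002 in one-peak genes and 0.04 in non-m1A genes, so that the sign of the one-peak median depends on the scaling.

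The difference also varied with position and gene length. Chromosome 19 had the lowest median, -0.08 over 281 members, and chromosome 13 the highest, 0.10 over 104. In both, the input difference was the larger, with -0.12 between inputs and -0.03 between supernatants on chromosome 19 and with 0.14 and 0.06 on chromosome 13. Chromosome 19 is dense in short genes and in zinc finger genes. Its 25 zinc finger genes had a median of 0.05, with 11 above and 3 below, while its other 256 members had -0.09, with 32 above and 113 below. Over all members the shares were 33.1% above and 29.8% below. Zinc finger genes elsewhere had 0.09 over 61. Across 5873 members with an annotated gene, Spearman's rho of genomic length was 0.16 with the input difference and -0.006 with the supernatant difference. Across 4903 members with a promoter, rho of promoter GC content was -0.10 for inputs and -0.07 for supernatants. These are descriptions across genes.

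**Figure D5:**
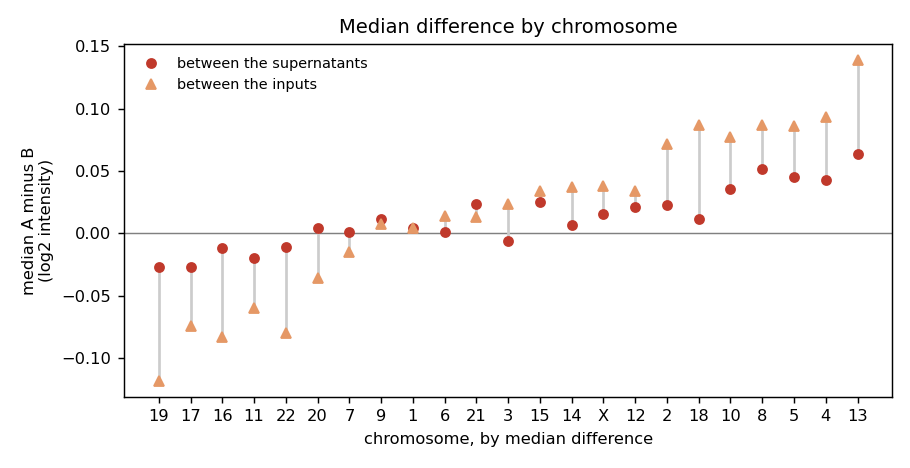
Median A minus B in log2 intensity per chromosome, ordered by the median difference, between the supernatants (red circles) and between the inputs (orange triangles). Chromosome 19 lies lowest and chromosome 13 highest, and the inputs spread wider than the supernatants.

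The second deposited table holds log2 values of 49395 probe sets with no gene names, in columns numbered 1 and 2 and not lettered. Its replicate difference was read as a check on size only. As deposited, 15147 of 49293 probe sets were higher in replicate 1 and 1 was lower at an adjusted p under 0.05 (limma), and the median difference was 0.35. After quantile normalization 0 probe sets passed in either direction, with 3462 higher and 3260 lower at an unadjusted p under 0.05 and a smallest adjusted p of 0.0634. Pearson's r between the supernatant and input differences was then 0.38 over probe sets, and 45.6% had both columns of one number on the same side of the other 2.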

How the data were processed

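Messenger RNA was measured on Affymetrix arrays in 2 supernatant and 2 input samples, grouped by their titles. Per the submitters' processing notes the arrays were processed with RMA (no version given). The deposited gene table gives linear intensities in 4 lettered columns and the authors' methylated fraction per gene, per the file headers. Its normalization is not stated there. The deposited value table gives log2 values.

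Intensities were put on the log2 scale without an offset and fitted with limma 3.58.1 (R 4.3.3) across all 6434 genes, letter as the factor, plain prior, Benjamini-Hochberg adjusted over all genes. Values from summaries used Python 3.11.15, pandas 2.3.3 and SciPy 1.17.1. The number of arrays, 4, limits precision. The fit was tested on simulated data. Alternatives were the trended and robust priors, fraction as a block, 4 scalings, a level of 100, members only and each column left out.

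The members and the 36 lists were chosen with earlier results of these data known. Named genes were those passing the test, filled up to 15 per direction by the smallest unadjusted p, with both columns of one letter above both of the other, plus up to 4 per list and 2 on either side of the level limit. Since 0 genes passed the plain prior, the named ones did not pass it. A few genes that the rule names are not reported here. Standard errors are those of the plain prior. Columns of a fraction share the fraction whatever the letter, so fraction was the block in the A minus B alternatives with a block. For supernatant against input the letter was the block in the alternative with a block. The main fit had no block. Symbols matched RefSeq for 5433 members, an older symbol for 440 and none for 31.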

Additional observations from a re-analysis of the deposited data

How the results depend on the processing

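With the plain prior, the counts of members passing an adjusted p of 0.05 were 0 higher and 0 lower in A with fraction as a replicate block, under both centrings, with the robust prior and at a level of 100. They were 1 higher and 0 lower with members only or quantile normalization, and 0 to 2 higher and 0 lower with 1 column left out. Adding 32 to each intensity gave 60 higher and 69 lower. The trended prior gave 125 higher and 139 lower, with a replicate block as well 780 and 685, and with quantile normalization 304 and 355. With the trended prior and 1 column left out, counts were 9 to 901 higher and 7 to 465 lower (29 and 89 without supernatant A, 84 and 89 without input B). All trended settings with a second change were chosen after seeing the data, and all 264 trended calls also passed with the block and with quantile normalization. The ATF4 median of 0.352 was 0.323 when columns were centred on non-m1A genes, and its 30 genes with A above B stayed within 1.5 times under the 3 scalings run. The one-peak median of 0.008 was -0.002 after quantile normalization. The 15147 and 1 probe sets became 0 and 0 after quantile normalization, 163 and 165 with the trended prior too. The cause of these changes was not tested. Supernatant against input gave 0 and 0 under every setting run. Beside the one-peak median, the medians of 5 lists changed sign with a scaling, namely the unfolded protein response, cholesterol synthesis, G1/S, NF-kB and mitochondrial import lists, and other lists near 0 did so with 1 column left out. Depth is not defined for arrays: in the 530 genes below the limit, differences between inputs had a standard deviation of 1.08 and between supernatants 0.60.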
